A study of Mus musculus with 6 samples.

Results

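The Notch genes described here were the receptors Notch1 and Notch4, the ligands Dll1, Dll4, Jag1 and Jag2, and the targets Hey1, Heyl, Hes1 and Nrarp, taken from the count table by their symbols. All 10 were among its 23420 gene symbols. The cells were eEnd2, an endothelial line from mouse embryos, stably transfected with human Integrin-β1A that carried GFP in its extracellular part and was driven by a short human β-actin promoter. In β1-WT-GFP cells the integrin was wildtype, and in β1-K794Q-GFP cells glutamine replaced a lysine of the cytoplasmic tail, which mimics its acetylation. Both lines were populations sorted by FACS for GFP, and grew untreated in DMEM with fetal calf serum. From each line, 3 cultures lettered A to C were taken, and their total RNA was sequenced after removal of ribosomal RNA. The labels do not name which sorted population, with low or high GFP, each culture came from, nor whether the cultures were transfected separately. The p values therefore set the difference between the lines only against the spread of these 6 cultures within each line. Whether a difference came with the construct or with the sorted populations was not tested. The cultures are called WT A to WT C and K794Q A to K794Q C from here on, and where 3 values of a line are given they follow that order.

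Notch receptors are cleaved when a Delta-like or Jagged ligand on a neighbouring cell binds them. The freed intracellular domain enters the nucleus, where it joins the DNA-binding protein Rbpj and Mastermind-like coactivators and switches on genes such as those of the Hes and Hey repressors. In endothelium, Dll4 and Notch1 restrain sprouting and promote arterial identity, Jag1 can counter Dll4, and Notch4 is largely restricted to endothelial cells. Nrarp, itself a target, destabilizes the intracellular domain and so acts as feedback.

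The table held between 9589826 and 15287191 counts per culture. Levels are given as CPM, counts scaled to a common library size after TMM normalization. A count of 0 allows up to 3 counts, or 0.209 to 0.300 CPM at these depths, and this limit covers counting error only. Of 14 endothelial marker genes, 12 were at 10 CPM or more in every culture, and the list summed to 9390, 10300 and 9330 CPM in the wildtype and 7530, 14400 and 8470 CPM in the K794Q cultures. The exceptions were Vwf, which did not exceed 2.41 CPM, and Cldn5, at 267, 252 and 4.74 CPM in the wildtype and at 17.5, 0 and 24.3 CPM in the K794Q cultures. The summed level of 11 mesenchymal markers was 87.3 to 195 CPM in β1-WT-GFP cells, most of it from Prrx1, and 2.84 to 3.85 CPM in β1-K794Q-GFP cells, while Thy1, Dcn and Lum were at 0 in all 6 cultures. Epithelial markers summed to at most 1.18 CPM, with Epcam, Krt18 and Cldn4 at 0, and blood markers to 31.1 to 103 CPM, nearly all of it Cd68, with Cd3e and Hba-a1 at 0. The part of these markers in the results below was not tested. WT A and WT B were close to each other, with 65 of 11608 tested genes (0.56%) at least 2-fold apart, although they differed beyond counting error. WT C was 2-fold or more from culture A in 23.3% of the genes, and K794Q B from cultures A and C in 17.2% and 22.1%, so that these 2 cultures stood apart from the others of their groups. Results for the Notch genes are therefore also given without them.

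The stretches upstream of Nrarp and Dll4 are shown because these are the feedback target and the Delta-like ligand of the set whose 250 bases before the start lay outside the annotated gene and held sequences that Hes and Hey proteins recognize. They are RefSeq entries for GRCm38.p6, both on the plus strand, chr2:25180508-25180757 for Nrarp and chr2:119325534-119325783 for Dll4, and end at the base before the transcription start. Capitals mark CACGTG and CACNAG, searched on both strands, where a match to CACNAG on the other strand reads as the reverse complement.
Nrarp: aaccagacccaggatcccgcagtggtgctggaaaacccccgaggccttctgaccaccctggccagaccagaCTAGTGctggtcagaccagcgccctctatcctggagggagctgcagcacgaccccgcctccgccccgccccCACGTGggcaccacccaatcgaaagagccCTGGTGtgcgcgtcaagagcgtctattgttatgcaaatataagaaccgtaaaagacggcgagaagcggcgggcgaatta
Dll4: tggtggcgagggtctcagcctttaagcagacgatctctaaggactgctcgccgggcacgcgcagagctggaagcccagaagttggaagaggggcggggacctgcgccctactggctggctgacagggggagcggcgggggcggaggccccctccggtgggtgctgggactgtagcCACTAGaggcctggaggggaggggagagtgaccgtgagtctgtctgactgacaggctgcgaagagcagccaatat
In the Nrarp window the matches began 179, 108 and 79 bases before the start, with CACGTG in the middle, and in the Dll4 window the single CACNAG began 75 bases before it. The matches did not overlap each other. The targets Hey1, Heyl and Hes1 had no entry, so of the targets only Nrarp was searched. Entries existed for 7 of the 10 genes, in 8 windows. Among these, CACGTG was present for 1 gene (Nrarp) and CACNAG for 3 (Nrarp, Notch1 and Dll4), while 6.02% and 36.7% of 32851 promoters of the same length held them. TGGGAA, the core of the Rbpj recognition sequence, was in none of the 8 windows and in 21.6% of all promoters. A match describes letters in the window and does not show binding.

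Of the 10 Notch genes, 8 had enough counts to be tested, and none of the 8 differed between β1-K794Q-GFP and β1-WT-GFP cells past both thresholds, a 2-fold change and an unadjusted p no larger than 0.05 (edgeR quasi-likelihood test). Across all 11608 tested genes, 603 (5.19%) passed both thresholds, of which 404 (3.48%) were higher in β1-K794Q-GFP cells and 199 (1.71%) lower, and 21 (0.181%) had a Benjamini-Hochberg adjusted p of at most 0.05. None of the 8 had an unadjusted p under 0.05 either, whereas DESeq2 and edgeR's likelihood ratio test each called Jag2 and Hes1. Of all 11608 tested genes, DESeq2 called 695 and the likelihood ratio test 727. In all 8 the values of the groups overlapped, while the groups did not overlap in 1923 (16.6%) of all tested genes. Since RNA was taken from whole cultures, fewer cells expressing a gene and less of its RNA per cell cannot be told apart.

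Cultures of the same construct differed widely in these genes, which is given here as a description with no test. The median SD within groups of the 8 tested genes was 0.98 on the log2(CPM + 0.5) scale, against 0.35 over all tested genes. Their median absolute log2 fold change between the groups was 0.37, against 0.26 over all tested genes. In 7 of the 8 (87.5%) the spread within groups exceeded the difference between them, as it did in 64.9% of all tested genes, and Hes1 was the exception with an SD of 1.04 and a difference of 1.42. Compared culture by culture on the same log2(CPM + 0.5) scale, which narrows the differences of low genes such as Jag2, pairs of cultures of 1 construct had 0 to 7 of the 8 genes at least 2-fold apart. The number was 0 for WT A and WT B (0.56% of all tested genes) and 6 for WT C against A (23.3%) or B (21.9%). It was 3 for K794Q A against B (17.2%) or C (7.78%), and 7 for K794Q B and K794Q C (22.1%). Pairs of cultures of different constructs had 0 to 5, from 0 for K794Q A and WT A (14.1% of all tested genes) to 5 for K794Q B and WT C (25.4%) and for K794Q C and WT C (20.9%).

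**Figure D1:**
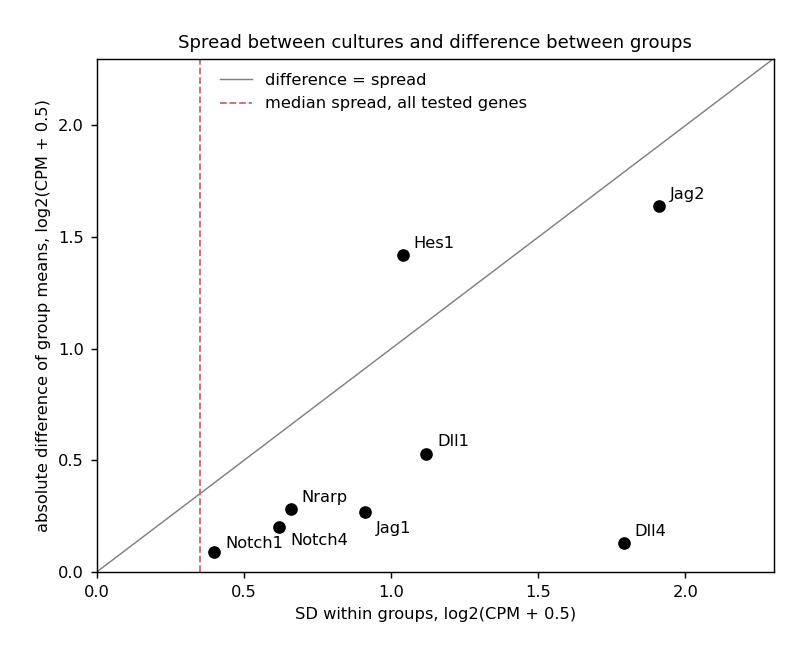
SD within groups (horizontal, log2(CPM + 0.5) scale) and absolute difference of the group means (vertical, same scale) of the 8 tested Notch genes, 3 cultures per group. Only Hes1 lies above the line on which the difference equals the spread, and all 8 lie to the right of the dashed line at the median spread of all tested genes, 0.35.

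The receptor Notch1 (chr2:26457903-26516663, minus strand, GRCm38) was at 389, 413 and 518 CPM in the wildtype and at 367, 700 and 388 CPM in the K794Q cultures. K794Q B was above the other values, which lay close together. The summed endothelial markers were also highest in K794Q B (14400 CPM). Cdh5, the endothelial cadherin, was at 3990 CPM there against 1290 to 2230 CPM in the others. Pecam1, Tek, Tie1, Eng, Emcn, Esam, Egfl7 and Robo4 were highest there too, whereas Flt1, Kdr, Erg, Vwf and Cldn5 were not. Flt1 was lowest there, at 31.3 CPM against 142 to 457 CPM in the others, and Cldn5 was at 0. Kdr, at 726 CPM, was below K794Q C (945 CPM) and the wildtype cultures (777 to 1150 CPM). The part of these markers in the level of the receptors was not tested. The group means of Notch1 were 440 ± 68.3 and 485 ± 187 CPM (SD, n = 3). Its log2 fold change was 0.14 (SE 0.32, 95% confidence interval -0.62 to 0.90, adjusted p = 0.936, edgeR).

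Notch4 (chr17:34564268-34588503, plus strand), the receptor largely limited to endothelium, was at 156, 154 and 257 CPM in the wildtype and at 152, 393 and 158 CPM in the K794Q cultures. The lower 4 values lay between 152 and 158, and the cultures that stood out were WT C and K794Q B. The log2 fold change was 0.31 (SE 0.44, interval -0.76 to 1.38, adjusted p = 0.898). Across the 6 cultures the receptors had the most similar patterns of any pair of the tested members, with a root mean square difference of 0.20 between their centred log2 values. Levels per kb of exon were higher for Notch1 than for Notch4 in 6 of 6 cultures. Such levels compare genes only roughly, because the merged exon length used can exceed that of the transcript expressed.

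Among the 4 receptors of the family, Notch1 made up 47.9% to 57.2% and Notch4 37.7% to 47.4% of the summed CPM per kb of exon in each culture. Notch2, the other broadly expressed receptor, made up 4.64% to 7.96% and had a log2 fold change of 0.02 (SE 0.36). Notch3, typical of mural cells around vessels, was at 0 to 2.06 CPM and was not tested. The sum over the receptors was 49.6, 50.7 and 74.2 CPM per kb in the wildtype and 48.0, 103 and 50.7 CPM per kb in the K794Q cultures, so it was raised in the cultures in which Notch1 and Notch4 were high.

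The ligand Dll4 (chr2:119325784-119335962, plus strand) was at 93.3, 82.1 and 25.9 CPM in the wildtype and at 94.1, 189 and 8.26 CPM in the K794Q cultures. β1-K794Q-GFP cells thus held the highest and the lowest value of all 6 cultures, 22.8-fold apart. The group means were 67.1 ± 36.1 and 96.9 ± 90.2 CPM (SD, n = 3), with a log2 fold change of 0.53 (SE 1.00, interval -1.88 to 2.95, adjusted p = 0.923), while the difference of the mean log2 values had the other sign, -0.13. The noncoding gene Gm14207 overlaps Dll4 on the other strand and was at 0.0696 to 2.89 CPM. Whether the counting used strand is not given in the sources used here, so that reads on shared bases cannot be told apart.

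Dll1 (chr17:15367354-15376872, minus strand), a further Delta-like ligand, was at 81.1, 85.3 and 17.3 CPM in the wildtype and at 53.8, 150 and 45.3 CPM in the K794Q cultures. Like Dll4 it was highest in K794Q B and, within the wildtype group, lowest in culture C, by 4.82-fold against the mean of A and B (3.39-fold for Dll4). Its log2 fold change was 0.44 (SE 0.71, interval -1.27 to 2.15, adjusted p = 0.91).

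Jag1 (chr2:137081456-137116644, minus strand), the most abundant of the ligands per kb in 5 of 6 cultures, was at 224, 242 and 661 CPM in the wildtype and at 222, 161 and 572 CPM in the K794Q cultures. Culture C was the highest in both groups, by 2.83-fold over the mean of A and B in β1-WT-GFP cells and by 2.57-fold over A in β1-K794Q-GFP cells. The group means were 376 ± 247 and 319 ± 222 CPM (SD, n = 3), with a log2 fold change of -0.24 (SE 0.63, interval -1.76 to 1.29, adjusted p = 0.95). The cultures with the most Jag1 were those with the least Dll4, and this pair had the largest root mean square difference in pattern of the 28 pairs of tested members, 2.18.

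Jag2 (chr12:112907819-112929776, minus strand) had the largest log2 fold change of the set, and it rested on 1 culture. It was at 2.45, 1.2 and 7.45 CPM in the wildtype and at 5.2, 72.4 and 2.41 CPM in the K794Q cultures. K794Q B was 19.0-fold above the mean of cultures A and C, which lay within the range of the wildtype cultures. The log2 fold change was 2.83 (SE 1.40, interval -0.54 to 6.21, adjusted p = 0.593, edgeR), with an exact permutation p of 0.6, where 3 cultures against 3 allow no p below 0.1. Without K794Q B it was 0.02, and without K794Q C it was 3.37 and passed both thresholds (adjusted p = 0.516).

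**Figure D2:**
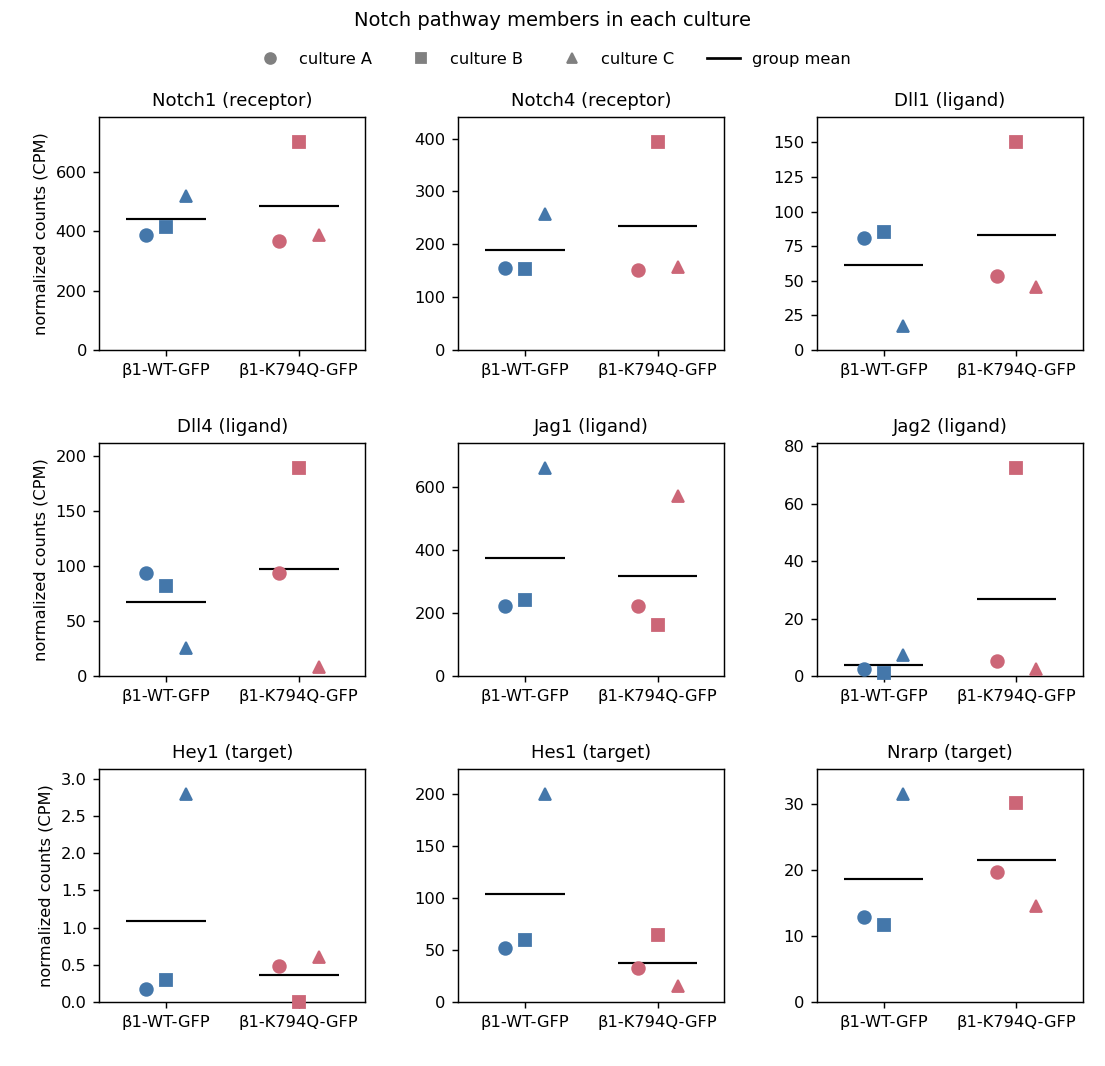
Normalized counts (CPM, linear axes from 0, a scale for each gene) of 9 Notch genes in the 3 β1-WT-GFP and 3 β1-K794Q-GFP cultures, where circles, squares and triangles are cultures A, B and C and lines are group means; Heyl, at 0 in all 6 cultures, is left out. K794Q B is the highest culture for 5 genes and WT C for the other 4.

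The make-up of the ligand transcripts varied widely among cultures of 1 construct. Jag1 and Jag2 together made up 47.2%, 50.1% and 91.4% of the summed CPM per kb of the 4 ligands in the wildtype and 51.2%, 31.1% and 88.4% in the K794Q cultures. Culture C of each group was thus dominated by Jag1, and K794Q B by the Delta-like ligands, at 68.9%. The ratio of Jag1 to Dll4 per kb was 1.59, 1.95 and 16.9 in β1-WT-GFP cells, and 1.56, 0.565 and 45.8 in β1-K794Q-GFP cells.

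**Figure D3:**
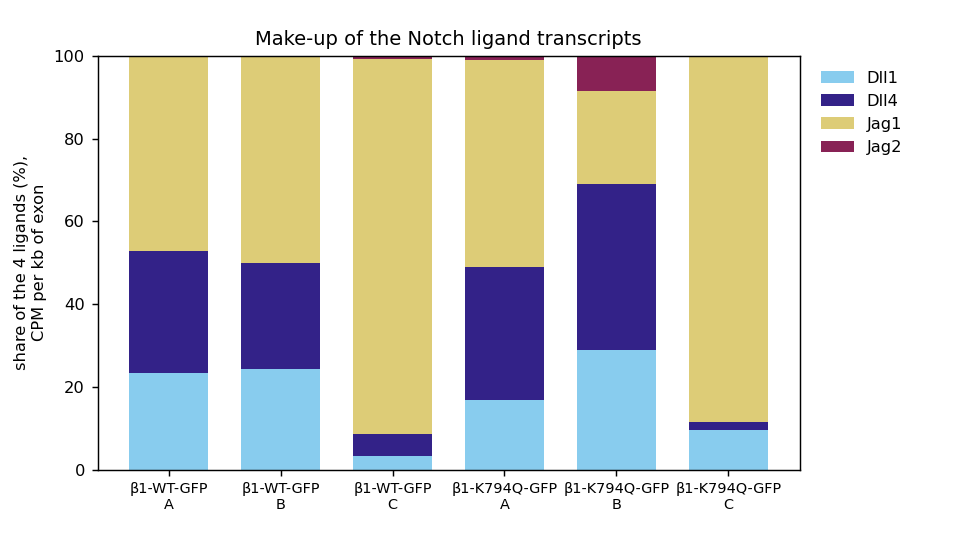
Share of each of the 4 Notch ligands in their summed CPM per kb of exon (vertical, percent) in each culture. Jag1 takes 90.5% in WT C and 88.1% in K794Q C, while Dll1 and Dll4 together take 49.9% and 52.8% in WT B and WT A.

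The target Hes1 (chr16:30064384-30067796, plus strand), a repressor of transcription, was at 52.2, 60.1 and 200 CPM in the wildtype and at 32.4, 64.2 and 15.2 CPM in the K794Q cultures. The groups overlapped, with K794Q B above WT A and WT B. The group means were 104 ± 83.3 and 37.3 ± 24.8 CPM (SD, n = 3), with a log2 fold change of -1.48 (SE 0.71, interval -3.21 to 0.24, adjusted p = 0.577, edgeR) and an exact permutation p of 0.3. The 13 alternatives reused the same cultures or part of them, so a shared sign among them is not separate evidence. In all 13 the log2 fold change of Hes1 was below 0, from -2.13 to -0.58. Without K794Q B it was -2.13 and passed both thresholds (adjusted p = 0.321), whereas without WT C alone it was -0.58 (adjusted p = 0.667) and did not pass. Without both cultures it was -1.22 and passed (adjusted p = 0.0842).

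Measured against Notch1, Notch4, Dll1, Jag2 or Nrarp of the same culture, Hes1 was lower in each K794Q culture than in each wildtype culture. The ratio of Hes1 to Notch1 per kb was 0.937, 1.02 and 2.7 in the wildtype and 0.618, 0.640 and 0.274 in the K794Q cultures. The ratio of Hes1 to Nrarp was 5.11, 6.57 and 8.06 in β1-WT-GFP cells, and 2.08, 2.69 and 1.33 in β1-K794Q-GFP cells. Of the 28 ratios between tested members the groups did not overlap in 5, and each of the 5 involved Hes1. They were 5 of the 7 ratios to Hes1 (71.4%). In the other ratios to Hes1, those of Jag1 and Dll4, the groups overlapped. For Dll1 the gap was narrow, with a ratio to Hes1 of 0.805 in K794Q A and 0.75 in WT A. Notch1, Notch4 and Nrarp had similar patterns (root mean square differences of 0.20 to 0.37), so their ratios are hardly separate observations. Over all other tested genes, the ratio to Hes1 did not overlap in 3093 of 11607 (26.6%), 3046 of them higher in the K794Q cultures, so that such ratios were common in the table. These ratios were singled out after their values were seen, share Hes1 as a term, and are given with no test.

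Nrarp (chr2:25180758-25183339, plus strand), the feedback target whose upstream stretch is printed above, was at 12.9, 11.6 and 31.5 CPM in the wildtype and at 19.7, 30.1 and 14.5 CPM in the K794Q cultures. It was highest in WT C and K794Q B, as the receptors were, and of the tested members Notch4 was nearest to it in pattern, with a root mean square difference of 0.31. The log2 fold change was 0.20 (SE 0.48, interval -0.96 to 1.35, adjusted p = 0.944). Nrarp and Notch1 lie 1.27 Mb apart on chromosome 2, and the 24 genes nearest to either had median log2 ratios to the wildtype mean between -0.32 and 0.23 in every culture.

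The repressor genes Hey1 and Heyl were not tested. Hey1 (chr3:8663359-8667256, minus strand) had 2, 3 and 40 counts in the wildtype and 5, 0 and 7 counts in the K794Q cultures, so that it was above 3 counts in WT C, K794Q A and K794Q C. The 24 tested genes nearest to Hey1, over 13.57 Mb, had median log2 ratios to the wildtype mean of -1.02, -0.08 and -1.05 in the K794Q cultures, while such medians lay between -0.32 and 0.23 around the other 9 genes. Heyl (chr4:123233556-123249875, plus strand) had 0 counts in all 6 cultures, which allows at most 0.209 to 0.300 CPM. The related Hey2 had 1 count in 1 culture.

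Ordered by their mean level per kb of exon over the 6 cultures, the genes ran from Jag1 (59.6 CPM per kb) through Hes1 (34.7), Notch1 (32.5), Notch4 (26.2), Dll4 (21.3), Dll1 (17.1), Nrarp (7.78) and Jag2 (2.18) to Hey1 (0.222) and Heyl (0). The ranges of every pair of neighbours in this order overlapped. Within cultures, Notch1 exceeded Notch4, Nrarp exceeded Jag2 and Jag2 exceeded Hey1 in 6 of 6, whereas Hes1 exceeded Notch1 in 2 of 6 and Notch4 exceeded Dll4 in 2 of 6.

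Leaving out K794Q B turned the sign of the log2 fold change in 6 of the 8 tested genes. Notch1 went to -0.22, Notch4 to -0.28, Dll1 to -0.29, Dll4 to -0.38, Nrarp to -0.13 and Jag1 to 0.08, all with an edgeR adjusted p of at least 0.767. With WT C left out as well, Dll1 was at 53.8 and 45.3 CPM in the remaining K794Q cultures and at 81.1 and 85.3 CPM in the wildtype cultures. Its log2 fold change was then -0.73 (SE 0.14, edgeR adjusted p = 0.0297), under the fold threshold. An adjusted p of at most 0.05 was common in that fit, with 1796 of 11721 tested genes, against 21 of 11608 with all 6 cultures. In the same fit Notch1 was at -0.07, Notch4 at 0.02, Dll4 at -0.77, Jag1 at 0.79, Jag2 at 1.05 and Nrarp at 0.50, none with an edgeR adjusted p below 0.19.

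**Figure D4:**
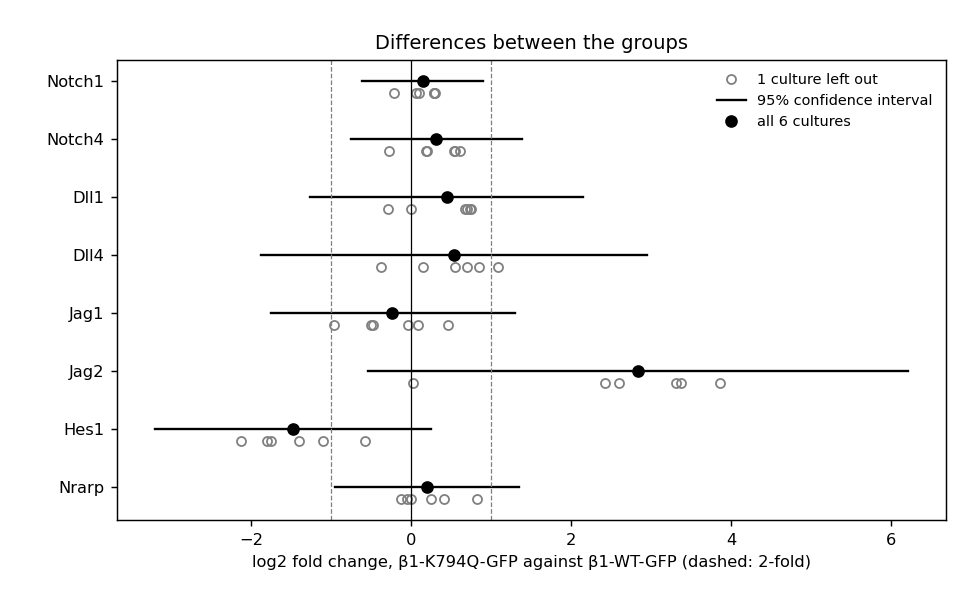
Log2 fold change of the 8 tested Notch genes, β1-K794Q-GFP against β1-WT-GFP (horizontal), with all 6 cultures (filled) and its 95% confidence interval (line), and with each of the 6 cultures left out in turn (open). Every interval includes 0, and only for Jag2 and Hes1 do all 7 points of the gene lie on the same side of 0.

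The patterns most like those of the 3 genes with the largest log2 fold changes were sought among tested genes with a mean of at least 1 CPM, by the root mean square difference of centred log2(CPM + 0.5) over the 6 cultures. For Jag2 these were Mthfd1l (0.48), Tspan8 (0.52) and Socs3 (0.52). Each was highest in K794Q B, at 728, 55.2 and 94.5 CPM. For Hes1 they were 2210016F16Rik (0.23), Kctd4 (0.29) and Nkain1 (0.29), each highest in WT C. For Dll4 they were Ednrb (0.31), Pyhin1 (0.57) and Tac4 (0.59), and Ednrb, an endothelin receptor, was at 1870, 2550 and 535 CPM in the wildtype and at 2530, 4040 and 307 CPM in the K794Q cultures.

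Of 61 other genes of the pathway, 45 were tested, none passed both thresholds upwards and 2 passed downwards, Psen2 and Cxcr4, neither with an adjusted p of at most 0.05. The 2 genes are 4.44% of the 45, beside 5.19% of all tested genes. The groups did not overlap in 7 of the 45 (15.6%, beside 16.6% of all tested genes), so both shares were near the background, and the median log2 fold change was -0.09, against -0.02 over all tested genes. Psen2, a catalytic subunit of the γ-secretase that cleaves the receptors, was at 29.3, 25.9 and 9.40 CPM in the wildtype and at 6.84, 4.34 and 12.1 CPM in the K794Q cultures. WT C lay below K794Q C, and the log2 fold change was -1.47 (SE 0.55, adjusted p = 0.43). Cxcr4, a chemokine receptor of tip cells, was at 7.17, 13.9 and 0.975 CPM in the wildtype and at 1.16, 0 and 0 CPM in the K794Q cultures (fitted log2 fold change -4.23, SE 1.59, adjusted p = 0.43). Psen2 no longer passed without K794Q A or K794Q B or WT A or WT B, and Cxcr4 without K794Q B or K794Q C or WT A or WT B, where their log2 fold changes were between -1.37 and -1.17 and between -4.25 and -3.38. With K794Q B and WT C both left out they were -1.52 (edgeR adjusted p = 0.03) and -4.20 (edgeR adjusted p = 0.0485). In that fit 8 of the 45 genes passed both thresholds, beside 1661 of all 11721 tested genes. Of the 11721, 1796 had an adjusted p of at most 0.05.

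By role, the cleavage enzymes held 9 tested genes, of which 1 passed (Psen2), with a median log2 fold change of -0.18. Over all roles the unadjusted p was under 0.05 in 5 of the 45 genes (11.1%, beside 10.2% of all tested genes). Besides Psen2 and Cxcr4 these were Ncstn, Hes6 and Maml1 at less than 2-fold, and they and the genes without overlap are named after their values were seen. Ncstn, another γ-secretase subunit, was at 150, 170 and 186 CPM in the wildtype and at 91.5, 128 and 87.3 CPM in the K794Q cultures, with no overlap (log2 fold change -0.72, edgeR adjusted p = 0.292). Hes6, a Hes family member that antagonizes Hes1, had a log2 fold change of -0.85 (edgeR adjusted p = 0.288), and the coactivator Maml1 one of -0.42 (edgeR adjusted p = 0.449). The groups did not overlap in these 3 genes and in Kdm5a (log2 fold change -0.23), Adam10 (0.38), Adam17 (0.23) and Maml3 (0.33), so that both directions occurred, also among the cleavage enzymes, to which the proteases Adam10 and Adam17 belong.

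None of the 5 tested genes of the nuclear complex passed both thresholds, and Rbpj had a log2 fold change of -0.35 (SE 0.29). Of the glycosyltransferases that modify the receptors and tune their response to ligands, none of 4 tested passed, and Lfng had a log2 fold change of 0.16 (SE 0.52). Mfng, a related Fringe enzyme, was at 68.1 CPM in K794Q B and at 0 to 0.200 CPM in the other 5 cultures, and did not reach the count filter. The same culture was the highest for Notch1, Notch4, Dll1, Dll4 and Jag2.

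By the quasi-likelihood test no gene passed among the 4 tested ubiquitin ligases of the ligands, the 5 corepressors at Rbpj or the 8 inhibitors and turnover factors, while DESeq2 and the likelihood ratio test both called the ligase Neurl3 lower. Of 8 tested arterial, tip and stalk cell genes, 1 passed (Cxcr4). Efnb2, the arterial ephrin, was at 117, 126 and 315 CPM in the wildtype and at 224, 170 and 168 CPM in the K794Q cultures, a log2 fold change of 0.01 (SE 0.42). It was highest in WT C, where Jag1, Hes1 and Nrarp were highest too. Apln and Sox17, named after their values were seen, also differed widely within a group. Apln, a peptide of tip cells, was at 35.6, 41.2 and 1100 CPM in the wildtype. In the K794Q cultures it was at 305, 393 and 649 CPM, at most 2.12-fold apart. Sox17, an arterial transcription factor, was at 17.9, 21.6 and 125 CPM in the wildtype and at 97.6, 0.296 and 205 CPM in the K794Q cultures.

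**Figure D5:**
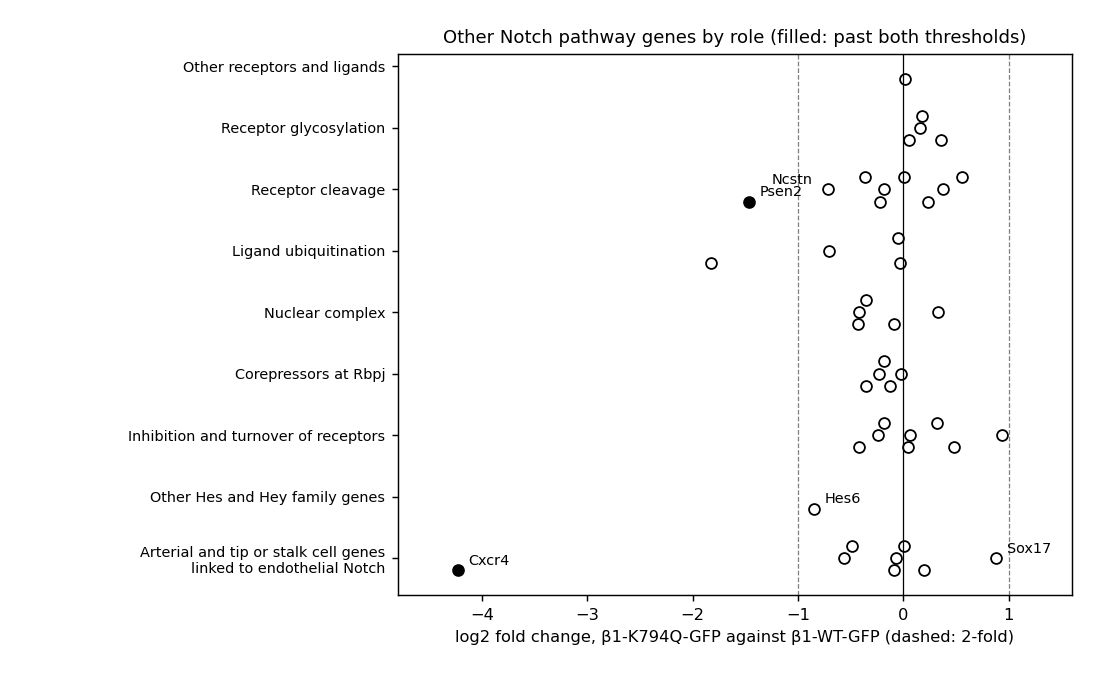
Log2 fold change (horizontal, β1-K794Q-GFP against β1-WT-GFP, 3 cultures each) of the 45 other tested Notch pathway genes by role, with genes past both thresholds filled. Psen2 at -1.47 and Cxcr4 at -4.23 are the filled points.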

How the data were processed

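Ribosome-depleted total RNA of 6 eEnd2 cultures was analysed, 3 per group, grouped by their titles. Per the submitters' processing notes, bcl2fastq 2.20.0, STAR 2.7.4a, HTSeq 0.9.1, edgeR 3.38.4 and build mm10 (GRCm38) were used, and the authors deposited raw counts of reads per gene symbol. The strand setting and annotation are not given in the sources used here, and of the 2 sequencing runs described in the methods 1 table was used. Every column was mapped to a culture (0 others).

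The analysis ran in R 4.3.3 and used edgeR 4.0.16, with filterByExpr (11608 genes kept), TMM and the two-sided quasi-likelihood test, with a common dispersion of 0.186. The thresholds were those of the study, a 2-fold change and an unadjusted p no larger than 0.05, with Benjamini-Hochberg adjustment over all tested genes. Standard errors are the log2 fold change over the square root of F. Exact permutation tests were two-sided. Levels per kb divide CPM by the merged exon length in GENCODE. Alternatives were no count filter, at least 10 counts in every culture, RLE, DESeq2 1.42.0, the likelihood ratio test, a block for the culture letter, and 1 culture left out in turn. Leaving out K794Q B and WT C together was added after seeing the data. The tests were tested on simulated data. The members and lists were chosen with earlier results of these data known. All 10 members, the pathway genes past both thresholds and Notch2, Notch3, Rbpj, Lfng, Mfng, Hey2 and Efnb2 were named by rule, other genes after their values were seen. Figures were drawn with matplotlib 3.10.9.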

Additional observations from a re-analysis of the deposited data

How the results depend on the processing

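Under no count filter, the stricter filter (10 counts or more in each culture), RLE and the replicate block, 0 Notch members passed both thresholds, as in the fit reported. DESeq2 called 2 and the likelihood ratio test 2, in both cases Jag2 (log2 fold change 2.85 and 2.84, adjusted p = 0.213 and 0.393) and Hes1 (-1.48 in both, adjusted p = 0.347 and 0.469). Over all 11608 tested genes, DESeq2 called 695 and the likelihood ratio test 727. Leaving out 1 culture gave 0 to 1 members, with Hes1 at -2.13 without K794Q B and Jag2 at 3.37 without K794Q C. Over all tested genes, 942 of 11853 passed without K794Q B and 650 of 11782 without K794Q C. With K794Q B and WT C both left out, a choice made after seeing the data, 1 member passed (Hes1), and Notch1 was at -0.07, Dll1 at -0.73, Dll4 at -0.77 and Jag1 at 0.79, each with its sign turned. Leaving out 1 culture moved the log2 fold changes between -0.22 and 0.30 for Notch1, -0.28 and 0.61 for Notch4, -0.29 and 0.75 for Dll1, -0.38 and 1.08 for Dll4, -0.97 and 0.46 for Jag1, 0.02 and 3.86 for Jag2, -2.13 and -0.58 for Hes1, and -0.13 and 0.82 for Nrarp. The sign of Jag1 turned without K794Q B (0.08) or WT C (0.46), and that of Nrarp without K794Q B (-0.13) or WT A (-0.01) or B (-0.06).

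Of the other pathway genes, 2 passed in the fit reported, 0 higher and 2 lower. DESeq2 and the likelihood ratio test each called 3, all lower (Cxcr4, Neurl3 and Psen2). Without a count filter 5 passed, 2 higher (Mfng and Notch3) and 3 lower, beside 916 of all 15974 genes in that fit. With at least 10 counts in every culture 1 passed, lower (Psen2). Leaving out 1 culture gave 0 to 5, with 0 to 1 higher and 0 to 4 lower. The largest number came without WT C, where 992 of all 11844 tested genes passed. With K794Q B and WT C both left out 8 of 45 passed, 3 higher (Apln, Gja4 and Sox17) and 5 lower (Cxcr4, Flt4, Neurl1b, Neurl3 and Psen2). In that fit 1661 of all 11721 tested genes passed.

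The culture letters are shared between the groups. The deviations of same-lettered cultures from their group means correlated at 0.11 for A, 0.05 for B and 0.10 for C. Culture A of β1-K794Q-GFP cells correlated with culture B of β1-WT-GFP cells as well (0.11). Because WT A and WT B were close to each other, this cannot decide whether the letters pair cultures. The main fit took the letters as names. The block lowered the SE of Jag1 (0.63 to 0.23), Dll4 (1.00 to 0.60) and Dll1 (0.71 to 0.44). It raised the SE of Jag2 (1.40 to 1.78), Hes1 (0.71 to 0.87), Nrarp (0.48 to 0.56) and Notch4 (0.44 to 0.46). With the letter as a block, 0 members passed, Dll4 was at -0.11, Jag2 at 1.48, and 1 other pathway gene passed, lower (Cxcr4). In these alternatives 571 genes passed under the block and 1661 with both cultures left out, against 603. The causes were not tested. With 3 cultures a group, the interval of Jag2 spans -0.54 to 6.21. Hey1 and Heyl did not reach the count filter, so no fold change is given for either.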
